A study of Mus musculus with 116 samples.

Results

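Chromosomal break joining was compared between Lig4-/-Ku70-/- clone A1_1 and Ku70-/- clone A1, both mouse pro-B cells transformed with v-Abl, a viral oncogene that keeps these early B-lineage cells dividing. The members are the 3 JoinT junction lists of each clone made after a Cas9 break, chosen by sample title, so 6 of the 116 samples of the series. The comparison asks whether DNA ligase IV shapes joining once Ku70 is already missing. All cells carried an Emu-Bcl2 transgene, which puts the survival factor Bcl2 under an immunoglobulin heavy-chain enhancer, and all were arrested in G1 by 96 h of STI-571 (3 µM), which blocks the v-Abl kinase. Both clones received Cas9 and a c-Myc guide RNA by nucleofection. Each genotype is 1 clone here, so clone and genotype cannot be told apart. The labels do not say from which cells A1_1 was made, and they use A1 for a Ku70-/- clone and for a Lig4-/- clone. Nor do they say whether the 3 replicates were separate cultures, so p-values measure only the spread between these libraries, which may be technical.

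In classical non-homologous end joining, Ku70 and Ku80 form a ring that binds broken DNA ends, protects them from nucleases and recruits ligase IV with XRCC4 to seal them. Cells without this pathway can still join ends by alternative routes, which often trim the ends and pair short identical stretches (microhomology) before other ligases seal the nick. Unjoined ends can also meet breaks elsewhere, and in developing B cells the RAG recombinase makes such breaks in the antigen receptor loci.

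The sequence around the break is shown because every deletion described here is cut out of it. It is the consensus of the reads themselves, written on the plus strand of mm10 at chr15:61987244-61987333, with the GGG that lies 3 bases beyond the cut, where Cas9 needs its protospacer-adjacent motif, in capitals.

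Intact sequence: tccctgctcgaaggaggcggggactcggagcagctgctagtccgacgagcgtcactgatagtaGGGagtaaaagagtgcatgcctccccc

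At every base of this window at least 99.2% of the reads agreed. The break itself was taken from WT clone A, as the most frequent last base on the primer side (the bait, 61987303) and the most frequent first base across the break (the prey, 61987304). It lies inside Myc, the gene of the c-Myc transcription factor (chromosome 15, 61985341 to 61990361), 1962 bp from the gene's start. Exon and intron annotation was not used here, and the guide's own sequence was not analysed here.

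A junction list has 1 row per read that crosses from bait to prey. The Ku70-/- libraries held 23198, 12668 and 26437 rows in replicates 1 to 3, and the Lig4-/-Ku70-/- libraries held 9082, 6412 and 13431. The Ku70-/- set was normalised to 396387 raw reads and the Lig4-/-Ku70-/- set to 201858, so amounts are given per 100000 raw reads. The smallest share that 3 rows can show ran from 0.0113% to 0.0468%. Local deletion rows were distinct in only 11.9% to 23.3% of cases, whereas joins to other chromosomes, far joins and inversions together were 99.4% to 100% distinct, so shares mix repeated and unrepeated rows. Reads carry no molecular identifiers, and intervals and floors cover counting error only. Read names also showed that Ku70-/- replicate 2 and Lig4-/-Ku70-/- replicate 3 came from the same sequencing run, whereas no other run held both genotypes. Lig4-/-Ku70-/- replicates 1 and 2 came together from another run, which held none of the Ku70-/- libraries. Where these 2 libraries stand apart from Ku70-/-, run and genotype cannot be told apart, and they may not be 2 independent observations. The run with both genotypes is called the shared run. In 8 of the 13 measures its 2 libraries were together the 2 highest or the 2 lowest of the 6. The difference between them is therefore given beside each of the 13 measures, but not beside every other result.

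The amount of joining lay in the same range with and without ligase IV. Ku70-/- libraries held 5852, 3196 and 6669 junctions per 100000 raw reads, and Lig4-/-Ku70-/- libraries held 4499, 3176 and 6654. The means were 5239 ± 1816 and 4776 ± 1755 (SD, n = 3 each), and the groups overlapped almost completely. On the log2 scale the Lig4-/-Ku70-/- mean minus the Ku70-/- mean was -0.13 (two-sided exact permutation p = 0.7; adjusted p = 0.7 over 13 measures). With 3 libraries against 3 this test cannot go below 0.1. The sign turned without Ku70-/- replicate 3 (0.08) and without Lig4-/-Ku70-/- replicate 2 (0.13), and the difference within the shared run was 1.06. For reference, WT clone A held 9209 ± 1926 junctions per 100000 raw reads, and Lig4-/- clone A1, which keeps Ku70, held 42.6, 204 and 40.6. The middle one of these Lig4-/- libraries stood apart, with 32.1% of its junctions at unresected ends against 2.33% and 0% in the others. The series holds other G1-arrested Cas9 sets of Lig4-/- clone A1, which were not used here.

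The variety of joins overlapped too. In an equal draw of 6412 rows, 1904, 2668 and 1954 distinct junctions were expected from the Ku70-/- libraries and 1714, 1687 and 2610 from the Lig4-/-Ku70-/- libraries. The means differed by -172 (exact permutation p = 0.5, adjusted p = 0.7), by 74.9 without Ku70-/- replicate 2, and by -58.0 within the shared run. Both libraries of that run had the most distinct junctions. The 10 most frequent junctions of each library took 12.0%, 8.70% and 11.9% of Ku70-/- rows and 14.3%, 16.3% and 10.4% of Lig4-/-Ku70-/- rows. This difference of 2.78 percentage points (exact permutation p = 0.3, adjusted p = 0.7) was 1.71 within the shared run, and the groups overlapped.

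Microhomology use overlapped between the genotypes. Bait and prey overlapped by at least 2 bp in 39.2%, 38.8% and 33.3% of Ku70-/- junctions and in 34.2%, 34.2% and 38.1% of Lig4-/-Ku70-/- junctions. The highest and the lowest values both came from Ku70-/- libraries, so the Lig4-/-Ku70-/- libraries lay wholly inside the Ku70-/- range. The difference was -1.57 percentage points (37.1 ± 3.32% against 35.5 ± 2.25%, SD, n = 3; exact permutation p = 0.6, adjusted p = 0.7), and -0.71 within the shared run. Counting each distinct junction once turned the sign, to 2.49 points (exact permutation p = 0.4). The mean overlap of joins without inserted bases was 1.32, 1.40 and 1.18 bp in Ku70-/- and 1.20, 1.21 and 1.33 bp in Lig4-/-Ku70-/- (difference -0.06 bp, exact permutation p = 0.7, adjusted p = 0.7). Within the shared run it differed by -0.07 bp.

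Each overlap length took a similar share in both genotypes. Blunt joins, with no overlap and no insertion, made up 28.9%, 27.9% and 31.5% of Ku70-/- rows and 31.3%, 31.1% and 28.8% of Lig4-/-Ku70-/- rows (difference 0.98 points, exact permutation p = 0.7, adjusted p = 0.7; 0.83 within the shared run). An overlap of 1 bp accounted for 28.8 ± 1.69% and 28.9 ± 0.19% (SD, n = 3), of 2 bp for 22.4 ± 1.55% and 22.3 ± 0.20%, and of 3 bp for 11.6 ± 1.01% and 10.7 ± 1.21%. Overlaps of 4 bp or more made up 3.11 ± 1.15% and 2.50 ± 1.07%. In WT clone A only 0.60 ± 0.02% of rows had a 2-bp overlap and 0.08 ± 0.03% a 3-bp overlap, below every library of both mutants.

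**Figure D1:**
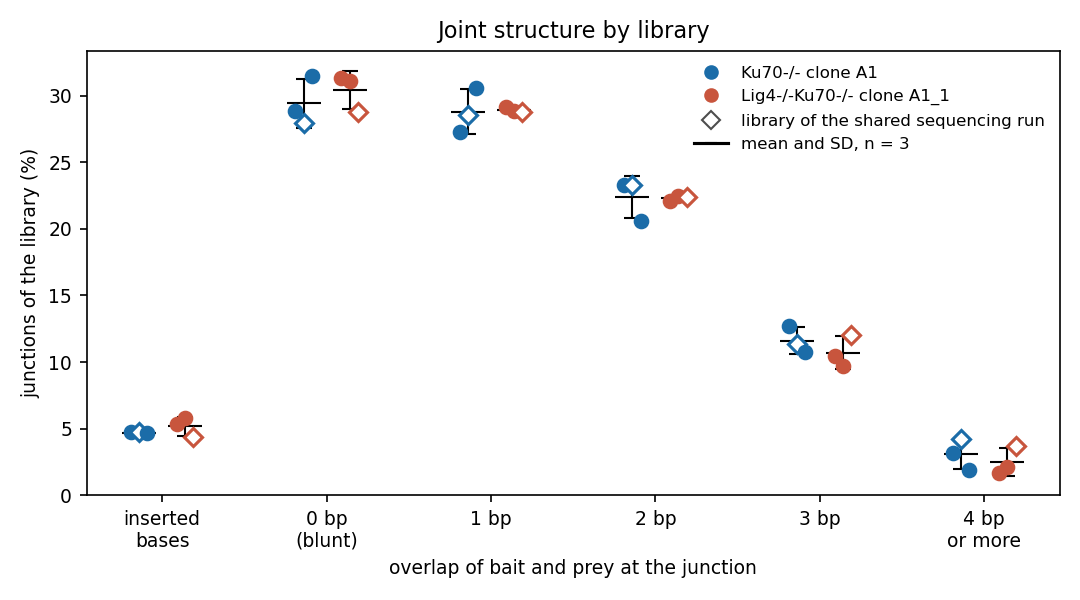
Percent of each library's junctions (y axis) by overlap of bait and prey or inserted bases (x axis), for 3 Ku70-/- A1 and 3 Lig4-/-Ku70-/- A1_1 libraries. Points are libraries, open diamonds are the 2 of the shared sequencing run, and bars give the mean and SD; in each of the 6 classes plotted the genotypes overlap, with blunt joins near 30% in both.

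How strongly microhomology was preferred can be read against what the sequence offers. Within 60 bp of bait and 30 bp of prey, 1350 distinct deletion products are possible, and 6.89% of them offer at least 2 bp of microhomology. Each of the 980 possible products with no microhomology was found 0.88 ± 0.48 times per 100000 raw reads in Ku70-/- and 0.84 ± 0.16 times in Lig4-/-Ku70-/- (SD, n = 3). Each of the 58 products with 2 bp was found 8.80 ± 4.09 and 8.30 ± 2.37 times, and each of the 29 with 3 bp 14.1 ± 6.25 and 12.7 ± 4.79 times. The ratio of 2-bp to 0-bp products was 10.7, 11.2 and 9.09 in Ku70-/- and 9.13, 8.42 and 11.8 in Lig4-/-Ku70-/- (exact permutation p = 0.8). The ratio of 3-bp to 0-bp products was 17.9, 18.4 and 13.8 against 12.7, 12.0 and 20.2 (exact permutation p = 0.7). The libraries of the shared run were the highest of their genotype in both ratios. Among these products use did not rise further with length. Each of the 6 products with 4 bp or more was found 3.00 ± 1.01 and 1.49 ± 0.79 times, below the 2-bp and 3-bp products. Their ratio to 0-bp products was 4.03, 5.07 and 2.46 against 1.10, 1.47 and 2.74 (exact permutation p = 0.2), and the groups overlapped. Only 3 of the 6 were seen in each Ku70-/- library, and 1, 1 and 2 in Lig4-/-Ku70-/- replicates 1 to 3. Products farther from the break were not counted, so overlap length and position are not separated here. The ratios for 2 bp and 3 bp are 2 of 12 comparisons added after the values were seen. In all 12 the groups overlapped, and every adjusted p was 0.9. The ratio for 4 bp or more, insertions over 20 bp and inversions per 100000 raw reads are outside the 12 and have no adjusted p. For the last 2, given below, the groups did not overlap, and they were picked from a wider set of library values compared in the same way.

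GC had the highest mean among the microhomology letters of both genotypes, and the order below it differed. Among local deletions with overlaps of 2 to 6 bp, GC made up 13.5 ± 0.70% in Ku70-/- and 11.7 ± 1.75% in Lig4-/-Ku70-/- (SD, n = 3). TGC made up 9.61 ± 1.33% and 10.9 ± 0.97%, AC 10.1 ± 1.89% and 8.21 ± 1.81%, and GT 7.84 ± 0.56% and 9.35 ± 1.13%. In Lig4-/-Ku70-/- replicates 1 and 2 GC did not lead: TGC (11.8%) and TA (13.8%) did. TA, which joins almost intact ends, took 3.67%, 2.51% and 5.96% in Ku70-/- and 7.95%, 13.8% and 3.11% in Lig4-/-Ku70-/-. The lowest Lig4-/-Ku70-/- value was again the library of the shared run.

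Microhomology varied with the size of the gap in both genotypes. Among deletions that lost 0 to 4 bp of prey, 21.4% to 23.0% of Ku70-/- and 22.2% to 29.2% of Lig4-/-Ku70-/- rows had at least 2 bp of overlap. At 5 to 20 bp these ranges were 41.6% to 47.0% and 39.3% to 47.7%, and at 21 to 100 bp they were 27.3% to 33.4% and 28.6% to 33.0%. Beyond 100 bp and up to 1000 bp, 57.9% to 64.3% and 59.9% to 60.8% of rows had it. The ranges of the genotypes overlapped in each bin.

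Inserted bases were uncommon in both. They appeared in 4.72%, 4.73% and 4.66% of Ku70-/- rows and in 5.35%, 5.82% and 4.39% of Lig4-/-Ku70-/- rows (difference 0.48 points, exact permutation p = 0.4, adjusted p = 0.7). Of the Lig4-/-Ku70-/- libraries, 2 lay above all Ku70-/- libraries, and the third, from the shared run, lay below all of them, so that the difference within that run was -0.34 points. Counting distinct junctions once gave -4.86 points (exact permutation p = 0.3). Insertions over 20 bp, looked at after the values were seen, were 0.496%, 0.339% and 0.280% of Ku70-/- rows and 0.231%, 0.265% and 0.223% of Lig4-/-Ku70-/- rows. Here the groups did not overlap (exact permutation p = 0.1, the smallest possible). In the second clone pair described below the means were 0.133% in Ku70-/- and 0.150% in Lig4-/-Ku70-/-, and those groups overlapped.

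Among the listed junctions, ends that lost nothing were rare, and they gained mostly an A. A perfect rejoin restores the target sequence and cannot be told from uncut DNA. That no list contained one therefore says nothing about how often it happened. A single base added between fully intact ends was seen 12.4, 9.33 and 32.5 times per 100000 raw reads in Ku70-/- and 43.6, 43.1 and 16.8 times in Lig4-/-Ku70-/- (exact permutation p = 0.2, adjusted p = 0.9 over the 12 added comparisons). Of the Lig4-/-Ku70-/- libraries, 2 were above the highest Ku70-/- library and the one of the shared run was not. The base was A in 48 of 49, 37 of 37 and 129 of 129 such Ku70-/- rows and in 88 of 88, 84 of 87 and 34 of 34 such Lig4-/-Ku70-/- rows. The 95% Wilson intervals of these shares had lower bounds of 89.3% to 97.1% and 89.8% to 95.8%. In WT clone A, where 29.1% to 29.8% of all rows had this form, A made up 74.5% to 75.4%, and the absolute amount of these +A rows was 1693 to 2539 per 100000 raw reads.

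Deletion lengths overlapped between the genotypes. The median loss on the prey side of local deletions, those in the same orientation within 100 kb, was 25, 38 and 23 bp in Ku70-/- and 21, 20.5 and 26 bp in Lig4-/-Ku70-/-. The longest medians in each genotype belonged to the shared run. On the log10(1 + bp) scale the difference was -0.093 (exact permutation p = 0.3, adjusted p = 0.7), and within the shared run it was -0.160. On the bait side, where the primer limits the visible loss to 84 or 85 bp, the medians over all junctions were 28, 36 and 25 bp against 21, 19 and 29 bp (difference -0.108 on the log10 scale, exact permutation p = 0.3, adjusted p = 0.7; -0.091 within the shared run). Losses on the bait and prey sides went together within each library. Spearman's rho between them was 0.79 to 0.81 in Ku70-/- and 0.80 to 0.84 in Lig4-/-Ku70-/-, over reads that are not independent.

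Long deletions overlapped as well. More than 100 bp of prey was lost in 14.9%, 16.4% and 10.5% of local Ku70-/- deletions and in 7.68%, 8.24% and 14.8% of local Lig4-/-Ku70-/- deletions. In 2 Lig4-/-Ku70-/- libraries the share lay below all Ku70-/- libraries, and the third lay among them. The difference was -3.70 percentage points (exact permutation p = 0.2, adjusted p = 0.7) and was -1.63 within the shared run. Losses over 1000 bp were seen in 0 rows of the Ku70-/- libraries and in 3, 1 and 0 rows of the Lig4-/-Ku70-/- libraries. The longest local deletion took 694 bp of prey in Ku70-/- and 3936 bp in Lig4-/-Ku70-/-.

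**Figure D2:**
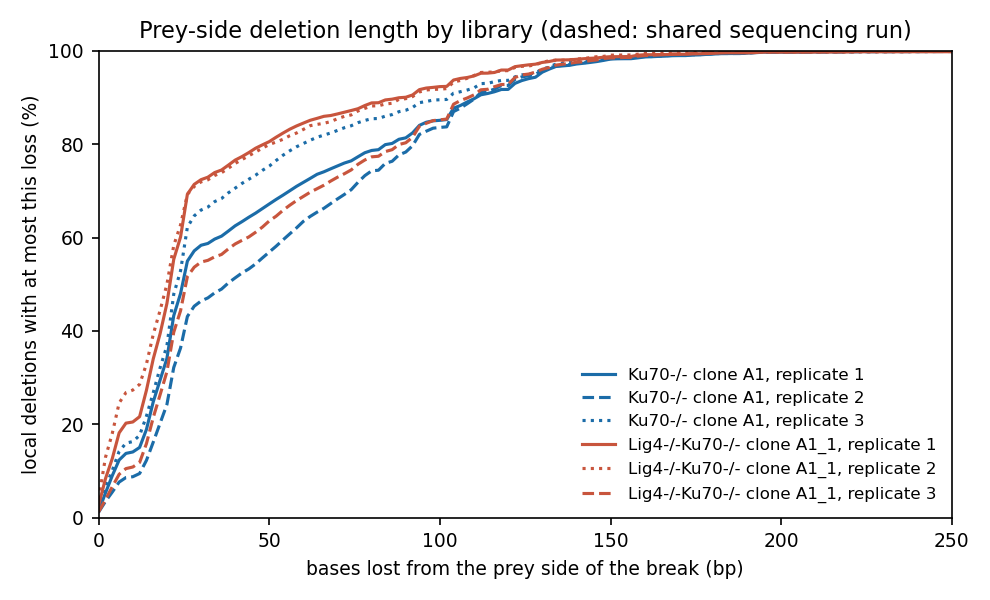
Cumulative percent of local deletions (y axis) by bases lost on the prey side in bp (x axis), 1 line per library. Around the medians the dashed lines of the shared sequencing run lie lowest in both genotypes (medians 38 and 26 bp), and replicates 1 (solid) and 2 (dotted) of Lig4-/-Ku70-/- A1_1 lie highest (medians 21 and 20.5 bp).

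The recurrent alleles show what both genotypes make of this break. The 10 local junctions with the highest mean share over the 6 libraries are printed as the most frequent read across each. They have 20 bases to each side, and the overlap, kept once in the product, is in capitals.

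Allele 1: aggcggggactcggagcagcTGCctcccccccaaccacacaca
Allele 2: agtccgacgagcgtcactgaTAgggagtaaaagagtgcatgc
Allele 3: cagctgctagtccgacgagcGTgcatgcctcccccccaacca
Allele 4: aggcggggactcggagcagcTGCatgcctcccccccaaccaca
Allele 5: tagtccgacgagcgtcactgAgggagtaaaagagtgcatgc
Allele 6: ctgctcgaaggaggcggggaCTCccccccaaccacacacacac
Allele 7: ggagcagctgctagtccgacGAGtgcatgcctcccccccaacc
Allele 8: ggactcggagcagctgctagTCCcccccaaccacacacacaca
Allele 9: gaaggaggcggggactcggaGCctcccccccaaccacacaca
Allele 10: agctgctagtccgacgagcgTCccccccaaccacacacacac

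In these 10 alleles bait and prey all overlapped, by 1 bp in allele 5, by 2 bp in alleles 2, 3, 9 and 10, and by 3 bp in the rest. The 1 bp of allele 5 is below the 2-bp minimum of the microhomology share. They lost between 3 and 60 bases. Alleles 1 and 4 have the same bait end, 61987280, and the same TGC overlap, but resume at 61987324 and 61987320. TGC stands at both prey positions in the intact sequence, so the pair differs only in which prey copy was used. The printed sequence accounted for 85.4% to 96.4% of each allele's reads that reach 20 bases on both sides.

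Allele 1 lost 46 bases and was the most frequent on average. It made up 2.36%, 1.97% and 2.42% of Ku70-/- rows and 2.74%, 2.32% and 2.16% of Lig4-/-Ku70-/- rows. Per 100000 raw reads the limma fit gave a log2 difference of -0.04 with a standard error of 0.74 (adjusted p = 0.995). The libraries overlapped on both scales.

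Allele 2 is the smallest deletion of the 10. The bait kept all bases up to 61987303 and the prey resumed at 61987305 with a TA overlap, so 3 bases were lost. Its share was 1.22%, 0.821% and 1.81% in Ku70-/- and 2.58%, 4.44% and 0.968% in Lig4-/-Ku70-/-. In 2 Lig4-/-Ku70-/- libraries it was above every Ku70-/- library, and in the one of the shared run it was not. In raw-read units the means were 72.8 and 107 (limma log2 difference 0.73, standard error 0.73, adjusted p = 0.995).

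Allele 3 joined 61987295 to 61987319 through GT and lost 25 bases, at 2.07%, 1.09% and 1.44% of Ku70-/- and 2.06%, 1.86% and 1.68% of Lig4-/-Ku70-/- rows. Allele 4 took 1.16%, 0.687% and 0.938% against 0.991%, 0.998% and 0.960%. Allele 5, which lost 5 bases, took 0.845%, 0.387% and 0.991% against 0.980%, 1.45% and 0.447%. In these alleles the groups overlapped, and the log2 differences in limma were 0.19, -0.02 and 0.18 (adjusted p = 0.995 each).

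Allele 6 is the only one of the 10 in which the shares did not overlap. It lost 60 bases through CTC and made up 1.10%, 0.829% and 0.919% of Ku70-/- rows and 0.628%, 0.764% and 0.715% of Lig4-/-Ku70-/- rows. Per 100000 raw reads the groups did overlap, with means of 50.8 and 33.4 (limma log2 difference -0.55, standard error 0.70, adjusted p = 0.995). Overlap of shares was not counted beyond these 10 alleles, so no background rate stands beside allele 6. For alleles 7 to 10 the mean shares lay between 0.540% and 0.815% in Ku70-/- and between 0.662% and 0.826% in Lig4-/-Ku70-/-, and all groups overlapped.

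**Figure D3:**
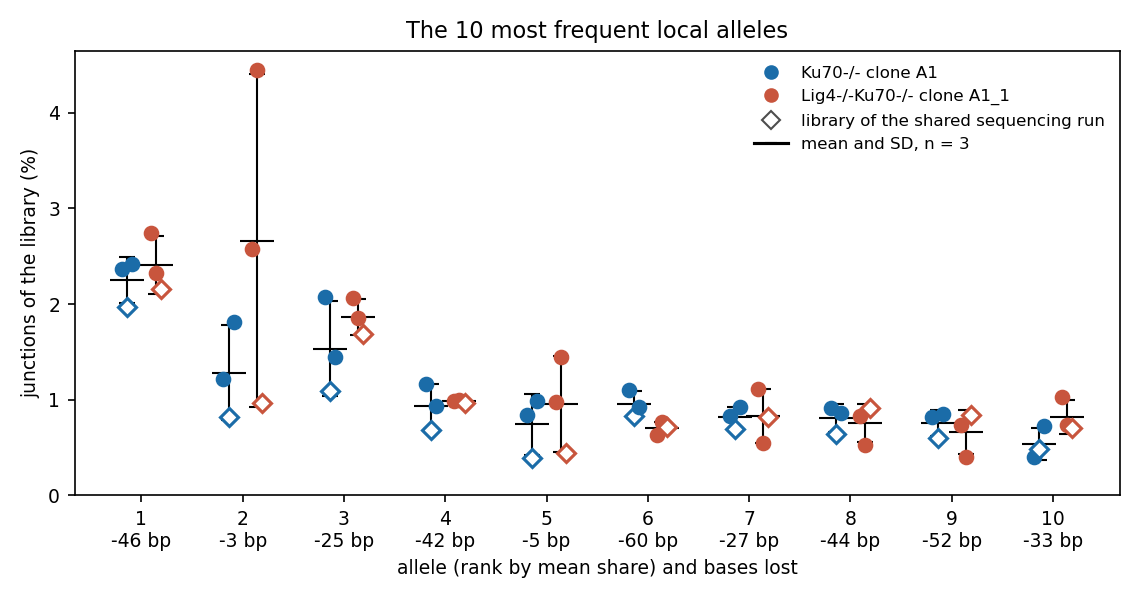
Share of each library's junctions in percent (y axis) of the 10 most frequent local alleles, ordered by mean share, with the bases lost under each rank (x axis). Points are libraries and bars give the mean and SD; allele 2, the 3-base deletion, has the widest spread, from 0.821% to 4.44%.

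No recurrent junction passed the test for a difference between the genotypes. The fit covered the 176 local junctions with a mean of at least 5 per 100000 raw reads, which together hold 46.7% of all rows. limma with Benjamini-Hochberg adjustment called 0 higher (0%) and 0 lower (0%) in Lig4-/-Ku70-/-, the smallest adjusted p was 0.995, and 3 had an unadjusted p under 0.05. All 3 Lig4-/-Ku70-/- libraries lay above all Ku70-/- libraries for 3 junctions (1.7%) and below for 4 (2.27%). In simulated data of this size, with 58 junctions changed, the same fit recovered 82.1% of those changed by 2 on the log2 scale. It recovered 100% of those changed by 3. Junctions were simulated independently, so recovery may be lower in real libraries or where few junctions change. Smaller changes were not simulated, and with a median standard error of 0.67 in the data they are poorly resolved. The median log2 difference was -0.13, the quartiles were -0.46 and 0.24, and 12 of 176 differed by more than 1 on this scale.

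Of the 7 non-overlapping junctions, the largest in each direction are named here, after their values were seen. The junction of 61987300 with 61987307, which lost 7 bases and has a 1-bp overlap, had means of 8.91 in Ku70-/- and 21.6 in Lig4-/-Ku70-/- per 100000 raw reads (limma log2 difference 1.31, standard error 0.66, adjusted p = 0.995). The junction of 61987234 with 61987436, which lost 205 bases through a 4-bp overlap, had means of 8.75 and 2.15 (limma log2 difference -1.55, standard error 0.84, adjusted p = 0.995). They lie at opposite ends of the range of deletion size.

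Sorted by prey loss, the direction of the limma log2 differences was not even. Of the 26 recurrent junctions that lost 0 to 4 bp of prey, 17 had a positive and 9 a negative log2 difference, with a median of 0.18. At 5 to 20 bp the counts were 35 and 14 of 49, with a median of 0.19. At 21 to 100 bp they were 17 and 66 of 83, with a median of -0.30, and beyond 100 and up to 1000 bp they were 2 and 16 of 18, with a median of -0.56. None of these junctions passed the test. They were counted from the same libraries as the deletion lengths above and are not separate evidence.

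**Figure D4:**
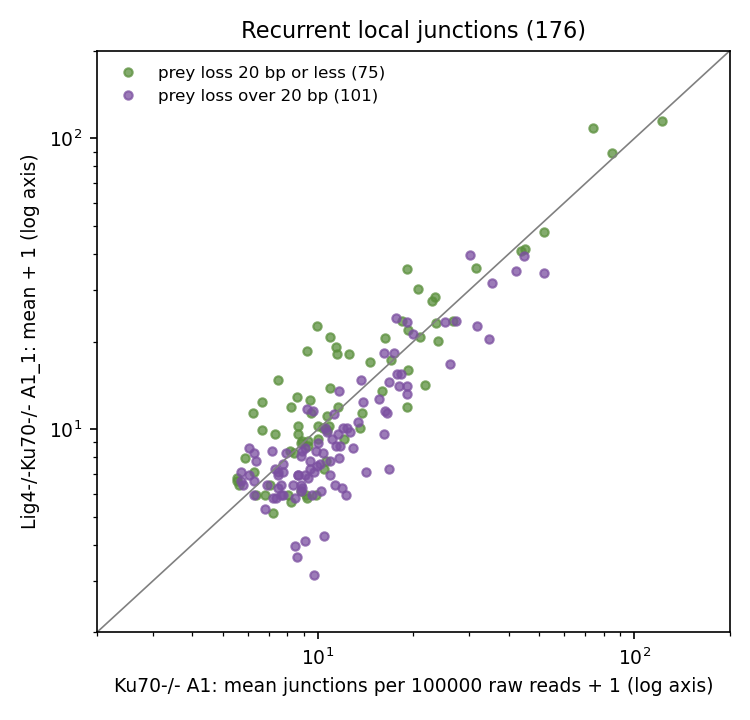
Mean junctions per 100000 raw reads plus 1 of the 176 recurrent local junctions in Ku70-/- A1 (x axis) and Lig4-/-Ku70-/- A1_1 (y axis), both log axes, with the line of equality. Green points lost at most 20 bp of prey and purple points more; the points follow the line, and none passed the adjusted threshold.

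The genotypes had most of their leading alleles in common. Of the 10 most frequent local junctions by mean share in each, 7 were in both lists, as were 12 of the top 20, 39 of the top 50 and 77 of the top 100. Across the 176 junctions, log2 levels correlated with Pearson's r of 0.59 to 0.78 between libraries of the same genotype and 0.46 to 0.81 between genotypes, and the highest of the latter was the pair from the shared run. These correlations are over junctions, which are not replicates.

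Inversions at the break were at the limit of detection. The lists held 2, 6 and 9 inverted joins within 100 kb in Ku70-/- and 6, 5 and 5 in Lig4-/-Ku70-/-. As a share of junctions within 100 kb these were 0.0090%, 0.054% and 0.036% against 0.070%, 0.084% and 0.043%. The shares overlapped, and the difference of 0.033 percentage points (exact permutation p = 0.2, adjusted p = 0.7) was -0.011 within the shared run. Per 100000 raw reads there were 0.505, 1.51 and 2.27 inversions in Ku70-/- and 2.97, 2.48 and 2.48 in Lig4-/-Ku70-/-. On this scale, looked at after the values were seen, the groups did not overlap (difference 1.21, exact permutation p = 0.1, the smallest possible), and the difference within the shared run was 0.963.

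Joins elsewhere on chromosome 15, over 100 kb from the break, made up 0.216%, 1.00% and 0.337% of Ku70-/- rows and 0.462%, 0.359% and 0.923% of Lig4-/-Ku70-/- rows. The highest library of each genotype was the one of the shared run. The difference was 0.06 percentage points (exact permutation p = 0.7, adjusted p = 0.7). Its sign turned without Ku70-/- replicate 1 (-0.09) or 3 (-0.03), without Lig4-/-Ku70-/- replicate 3 (-0.11), and within the shared run (-0.08).

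Translocations to other chromosomes were most frequent, in each genotype, in the library of the shared run. They made up 3.80%, 11.9% and 4.05% of Ku70-/- rows and 5.68%, 6.39% and 13.4% of Lig4-/-Ku70-/- rows. In each genotype that library was more than 2-fold above both others, and the ranges overlapped. The difference was 1.89 percentage points (6.59 ± 4.62% against 8.48 ± 4.25%, SD, n = 3; exact permutation p = 0.5, adjusted p = 0.7), 1.44 within the shared run, and -0.55 without Lig4-/-Ku70-/- replicate 3. Per 100000 raw reads there were 223, 381 and 270 such joins in Ku70-/- and 256, 203 and 889 in Lig4-/-Ku70-/- (exact permutation p = 0.9). Lig4-/-Ku70-/- replicates 1 and 2 lay within or below the Ku70-/- range and replicate 3 was more than 2-fold above it.

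Chromosome 6 was the leading partner in both genotypes. It received 17.7%, 23.5% and 15.0% of the translocations in Ku70-/- and 12.2%, 15.6% and 19.6% in Lig4-/-Ku70-/-, while chromosomes 2, 1, 5 and 4, next in order, each averaged 5.52% to 6.45% over the 6 libraries. Of the 5 leading 1-Mb windows, 4 were neighbours on chromosome 6 between 67000001 and 71000000, which hold the gene segments of Igk, the kappa light-chain locus. The fifth, on chromosome 16 from 19000001 to 20000000, holds segments of the lambda light-chain locus Igl. It took 1.02%, 0.795% and 0.373% of the translocations in Ku70-/- and 0.388%, 0% and 0.167% in Lig4-/-Ku70-/-.

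Igk, taken from the first to the last annotated gene segment (chromosome 6, 67555636 to 70726754), received 103, 274 and 86 Ku70-/- joins and 37, 39 and 242 Lig4-/-Ku70-/- joins. This was 11.7%, 18.1% and 8.02% of the translocations in Ku70-/- and 7.17%, 9.51% and 13.5% in Lig4-/-Ku70-/- (exact permutation p = 0.6, adjusted p = 0.9 over the 12 added comparisons). Both libraries of the shared run were the highest of their genotype, and the ranges overlapped. The prey was in minus orientation in 50.7% to 62.8% and 52.9% to 64.1% of Igk joins, and 23.3% to 39.8% and 24.0% to 35.9% of them had at least 2 bp of microhomology. In WT clone A Igk took 14.2% to 17.3% of translocations, but only 3.88% to 5.65% of those had such microhomology.

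The other antigen receptor loci received few joins. The heavy-chain locus Igh on chromosome 12 had 4, 9 and 6 in Ku70-/- and 3, 1 and 12 in Lig4-/-Ku70-/-, and Igl had 9, 12 and 4 against 2, 0 and 3. The T-cell receptor gamma locus had 2, 11 and 7 against 0, 0 and 12, and the alpha and delta locus 6, 8 and 2 against 0, 0 and 4. The T-cell receptor beta locus had 1 join over the 6 libraries together, in Lig4-/-Ku70-/- replicate 3. These are counts of rows from sets of different depth. Per 100000 raw reads Igl had 2.27, 3.03 and 1.01 in Ku70-/- against 0.991, 0 and 1.49 in Lig4-/-Ku70-/-, and the groups overlapped. All receptor loci together took 14.1%, 20.8% and 9.79% of Ku70-/- and 8.14%, 9.76% and 15.3% of Lig4-/-Ku70-/- translocations (exact permutation p = 0.4, adjusted p = 0.9). In the smallest library, 0 of 410 translocations allows a share of up to 0.732%.

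Microhomology and insertions in translocations also overlapped between the genotypes. An overlap of at least 2 bp was present in 23.8%, 29.5% and 19.7% of Ku70-/- and 23.3%, 27.8% and 26.9% of Lig4-/-Ku70-/- translocations. Local deletion rows had it in 33.9% to 40.2% and 34.7% to 39.9%, above the translocations in all 6 libraries. With each distinct local deletion counted once, the values were 12.5% to 15.6% and 14.7% to 17.3%, below the translocations in all 6, so the order depends on how repeated rows are counted. Inserted bases were found in 33.3%, 20.7% and 38.4% of Ku70-/- and 35.1%, 28.5% and 18.0% of Lig4-/-Ku70-/- translocations, and the libraries of the shared run had the lowest value in each genotype. Prey orientation was plus in 45.3% to 51.3% and 48.8% to 52.4%. Between genotypes the exact permutation p was 0.7 for overlap and 0.6 for insertion (adjusted p = 0.9 each).

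**Figure D5:**
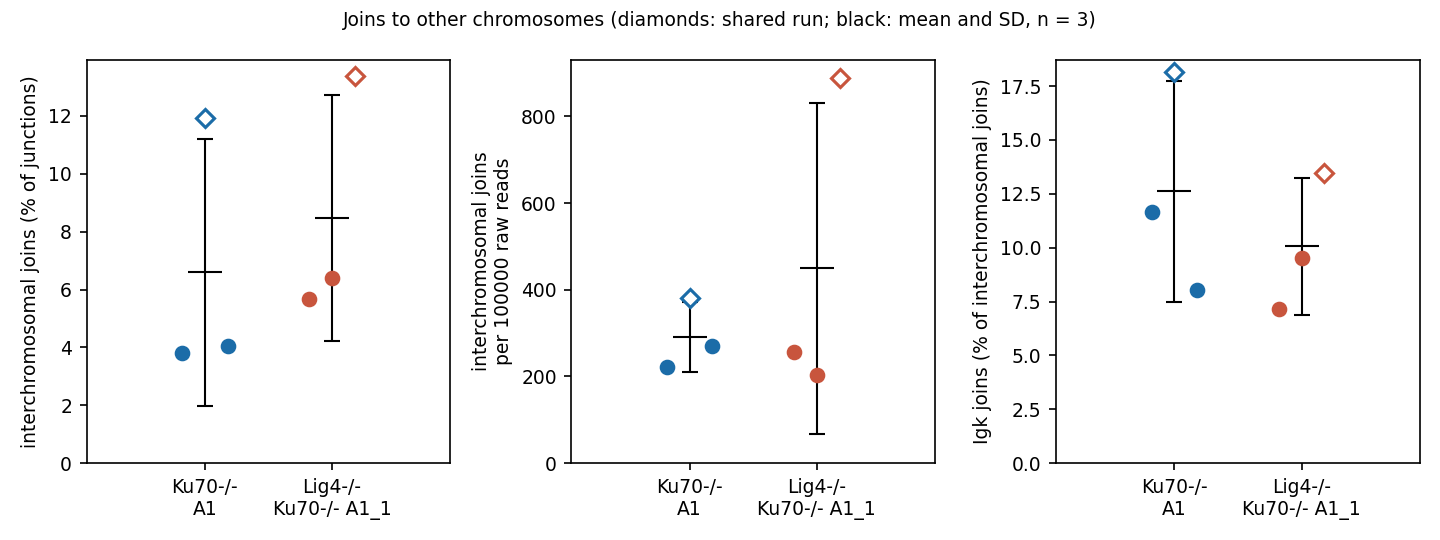
Joins to other chromosomes per library as percent of junctions (left), per 100000 raw reads (middle), and percent of them in Igk (right), for Ku70-/- A1 and Lig4-/-Ku70-/- A1_1 (x axes). Points are libraries, and bars give the mean and SD; in each panel the open diamonds of the shared sequencing run are the highest of their genotype.

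A second pair of clones gave another picture. Ku70-/- clone B1 (600000 raw reads) and Lig4-/-Ku70-/- clone C1 (273198 raw reads), treated alike and also carrying Emu-Bcl2, did not overlap in 12 of the same 13 measures, whereas A1 and A1_1 did not overlap in 0 of 13. The exact permutation p was 0.1 for each of the 12, the smallest possible, and the adjusted p was 0.108. No run held both clones, and their letters differ, so clone, run and genotype cannot be told apart. Microhomology of at least 2 bp was found in 38.2%, 36.3% and 36.0% of B1 and 31.6%, 32.0% and 32.4% of C1 rows. Prey losses had medians of 80, 78 and 78 bp in B1 and 25, 26 and 25 bp in C1, and losses over 100 bp made up 31.2%, 28.8% and 30.7% against 14.2%, 14.5% and 14.4%. On both measures of deletion C1 lay within the range of A1 and A1_1 and B1 above it. In microhomology B1 lay within that range and C1 below it. C1 also held 15383 to 16398 junctions per 100000 raw reads, above every A1 and A1_1 library, and B1 held 4325 to 8644. Allele 1 took 0.531 ± 0.06% in B1 and 1.54 ± 0.07% in C1 (SD, n = 3), and allele 2 took 0.978 ± 0.20% and 1.87 ± 0.20%. Of the top 50 local alleles of A1_1, 41 were also among those of C1 and 13 among those of B1, and of the top 50 of A1 40 and 15 were.

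The differences in the 2 clone pairs were compared by exact permutation of labels within each pair (400 relabellings, smallest p 0.005). The log2 difference in junction abundance was 1.24 between C1 and B1 and -0.13 between A1_1 and A1 (exact permutation p = 0.065 for the difference of differences). For the microhomology share the values were -4.85 and -1.57 points (exact permutation p = 0.345), and for deletions over 100 bp -15.9 and -3.70 points (exact permutation p = 0.11). Of 13 such tests 1, the inversion share, had p under 0.05 before adjustment, and the smallest adjusted p was 0.238. None of the 13 passed after adjustment. Relabelling within pairs supposes no genotype difference in either pair. Where both differences have the same sign, the test can hardly give a small p, however unequal they are. It therefore cannot show that the clone pairs were alike.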

How the data were processed

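The JoinT-seq junction lists of 6 libraries, of 6 libraries of a second clone pair and of 6 reference libraries were used as the authors deposited them, with 1 row per read. Per the labels, libraries were made by linear amplification from a primer beside the break without the enzyme blocking step. Each set was normalised by the authors to a stated number of raw reads. Per the submitters' processing notes, mm10 and Bowtie2 were used; Bowtie2's role is not given in the sources used here. Deposited columns are coordinates and read positions (other values, no unit). Overlap was the bait's last read position minus the prey's first plus 1. Gene positions came from RefSeq (GRCm38.p6, the same build).

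Each library gave 1 value per measure, compared by two-sided exact permutation over 20 relabellings, with Benjamini-Hochberg adjustment over 13 measures. Recurrent local junctions were fitted with limma 3.58.1 (R 4.3.3) on log2(junctions per 100000 raw reads + 1), tested on simulated data. The named junctions are the 10 with the highest mean share over 6 libraries and, had any passed, the 5 largest in each direction; chromosomes and 1-Mb windows off chromosome 15 are the 5 with the highest mean share. Members and lists were chosen with earlier results of these data known. Replicates shared no read names and differed by more than independent rows would (chi-square per degree of freedom over recurrent junctions at least 2.45 in both clones), so all were kept. Repeated rows also raise this value. Over classes of join type and overlap length, Lig4-/-Ku70-/- replicates 1 and 2 differed little (chi-square p = 0.054), unlike the other replicate pairs of both clones. Same-numbered libraries did not deviate together (r = -0.12, -0.28 and -0.55 over 176 junctions), so numbers were not used as pairs. Alternatives were distinct junctions, other minima and windows, a block on replicate number, other pseudocounts and filters, each library left out, and the shared run alone. Some were chosen after seeing the data: local deletions only for 2 measures, the test between clone pairs, 12 added comparisons, the ratio for products with 4 bp or more, insertions over 20 bp, and inversions per 100000 raw reads.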

Additional observations from a re-analysis of the deposited data

Results flagged for a closer look

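The inversion share had an unadjusted p under 0.05 in the test of the difference between the clone pairs, and did not pass after adjustment. It was 0.033 percentage points higher in A1_1 than in A1 (0.066 ± 0.020% against 0.033 ± 0.023%, SD, n = 3) and 0.020 points lower in C1 than in B1 (0.038 ± 0.006% against 0.058 ± 0.011%). The difference of these differences was -0.053 points (exact permutation p = 0.02, adjusted p = 0.238 over 13 measures). It rests on 2 to 9 inverted joins per library in the first pair and 13 to 31 in the second. Per 100000 raw reads, inversions were more frequent on average in the Lig4-/-Ku70-/- clone of both pairs (2.64 against 1.43 in A1_1 and A1, and 5.49 against 3.61 in C1 and B1), so the opposite directions hold only for shares. Within the shared run of the first pair the difference in share was -0.011 points.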

How the results depend on the processing

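Of the 13 measures between A1_1 and A1, 44 of 55 values under other settings and 71 of 78 with 1 library left out kept their direction, and none crossed the threshold, which this design cannot reach. Counting distinct junctions once turned junction abundance to 0.27 (log2), the microhomology share to 2.49 points, mean overlap to 0.030 bp, the blunt share to -0.43 points, the insertion share to -4.86 points, the far chromosome 15 share to -0.080 points, and the insertion share of the second pair to 0.75 points. In the shared run, abundance was 1.06, insertions -0.34, inversions -0.011 and far joins -0.079. Deletions over 1000 bp gave 0.017 points.

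With 1 library left out, abundance ran from -0.45 to 0.13, distinct junctions from -475 to 74.9, far joins from -0.11 to 0.31, and the interchromosomal share from -0.55 to 4.55. The log2 differences ran from -0.45 to 0.25 for allele 1, -0.34 to 0.54 for allele 3, -0.53 to 0.27 for allele 4, -0.53 to 0.63 for allele 5, -0.58 to 0.36 for allele 7, -0.70 to 0.25 for allele 8, and -0.82 to 0.20 for allele 9. Per 100000 junctions of the library, allele 1 gave 0.10 and allele 4 gave 0.11. In every such case the cause was not tested.

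limma called 0 junctions in every setting, with 0 to 21 at an unadjusted p under 0.05 among 25 to 773 tested. With the replicate number as a block, exact sign-flip p-values ran from 0.25 to 1 over the 13 measures (smallest possible 0.25), and limma called 0, with 9 at an unadjusted p under 0.05; the block changed no call. Inversions rest on 2 to 9 rows per library.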
